A study of Gallus gallus with 24 samples.

Results

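The genes described here are 92 genes of the embryonic chicken foot whose mean level was ordered from high to low across 4 times of incubation. They are 92 of the 7008 genes with a mean of 10 to 1000 CPM (counts per 1000000 reads), or 1.31%, and of 30108 genes listed in all. The tissue was interdigital region 3 of the hindlimb, which lies between neighbouring digits. It was taken after 7 days plus 4, 6, 8 or 11 hours of incubation, with 6 libraries at each time. The labels name no allele, strain or agent for any group. The sample titles tell the groups apart by incubation time, and library numbers in the labels, described below, also differ between times. Whether every library stands for its own embryo is not stated in the labels, so that p-values measure only the spread between these libraries, which may be technical.

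In the embryo the interdigital mesenchyme is removed by programmed cell death, which frees the digits from each other. Bone morphogenetic proteins (BMPs), secreted signals of the limb bud, promote this death, and reactive oxygen species accumulate where it takes place. The title of the study places the time course in work on both. The files give Ensembl identifiers without gene names, and the reference table used here holds no match for them, so that no role is given to any of the 92 genes, no pathway list was evaluated and the tissue was not checked against its markers.

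The members were chosen by their measured levels on the log2(CPM + 1) scale, in 21 libraries. Replicate 5 at 6 h and replicates 2 and 5 at 8 h, with 690847 to 894326 reads, were left out by the rule, and the other libraries held 1794673 to 8134730 reads. That leaves 6, 5, 4 and 6 libraries in the order of the times. Of the 7008 genes, 309 had group means in the order 4 h, 6 h, 8 h, 11 h from high to low, and 125 of these differed by at least 0.4 between 4 h and 11 h. A pooled SD within times under 0.6 left 103. The last condition concerned ENSGALG00010011988, a gene at 533.5 to 1024 CPM in some libraries and at 3.62 to 9.42 CPM in the others: a gene was kept when its libraries of these 2 classes differed by under 0.4, which left 92. The member nearest to the limit on the difference had a value of 0.4008, and the nearest gene outside it 0.3999. For the SD these values were 0.599 and 0.602. The order, the size of the fall and the cap on the spread are thus given by the choice and are reported as a description. A fall here is a difference between group means, not a change that passed a test.

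The falls were small. Between 4 h and 11 h the mean level dropped by 0.40 to 0.88 log2 units, with a median of 0.52, which is a factor of 1.32 to 1.84 with a median of 1.43 on the log2(CPM + 1) scale. No member reached a difference of 1 log2 unit, and 42 of the 92 fell short of 0.5. Over all 7008 genes the median of the same difference was 0.05, with values from -2.08 to 1.22. The difference was at least as large as the SD within times in 78 members and at least 2 times as large in 12. The SD within times had a median of 0.39 among the members and 0.38 among the 7008 genes, which carry no condition on the spread.

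The fall was ordered rather than even. The median step was 0.15 log2 units up to 6 h, 0.15 in the 2 hours up to 8 h and 0.16 in the 3 hours after that. The medians over the 7008 genes were 0.05, -0.01 and -0.01. The largest step was the opening one (to 6 h) in 33 members, the middle one in 28 and the closing one (after 8 h) in 31, and it held 36.5% to 88.8% of the whole fall, with a median of 57.8%. In 32 members at least one step was under 0.05 log2 units, the smallest being 6.1e-05, whereas in 25 members every step reached 0.1. Members with a near flat interval were thus more frequent than members that fell by 0.1 or more in every one.

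**Figure D1:**
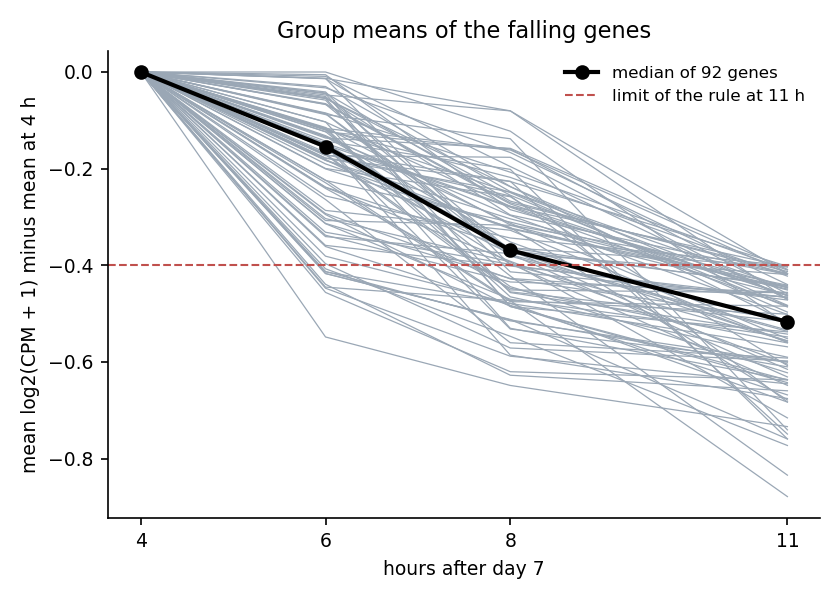
Each grey line is 1 of the 92 genes and joins its group means of log2(CPM + 1) at 4, 6, 8 and 11 hours after day 7, relative to 4 h; the black line is the median. The median reaches -0.52 at 11 h, while single lines differ in the interval that holds most of the fall.

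Within their range of CPM the members leaned towards the lower levels. Their mean level ranged from 10.2 to 118.5 CPM with a median of 26.3, against a median of 33.3 CPM over the 7008 genes. Only 2 members exceeded 100 CPM, which is 2.17% of them against 15.3% of the 7008 genes. The rule used these levels, and genes found for the other orders of the times were not compared. Whether the lean comes from the choice was not tested. All 92 passed the filter on low values used for testing, and each had reads in every one of the 21 libraries. The lowest count of a member in any library ranged from 11 to 191 reads with a median of 36.5. Counting error, estimated from the reads, amounted to a median of 12.6% of the variance within times among members and 11.2% over the 7008 genes.

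How often such an order arises was described in 2 ways. The same conditions applied to each of the 24 possible orders of the 4 group means found 42 genes or more, with a median of 76. The order from 4 h down to 11 h, with 92 genes, ranked below 6 other orders, and the reverse order, a rise from 4 h to 11 h, found 75. The most frequent was 4 h above 6 h, 11 h and then 8 h, which 2.24% of the 7008 genes followed against 1.31% for the falling order. Each of the 6 more frequent orders has 6 h or 8 h, the times with fewer used libraries, as its highest or lowest. So do most of the 24 orders, including 8 h above 6 h, 4 h and then 11 h, among the rarest with 42 genes. Of the orders with 4 h and 11 h at the ends, the falling one found the most, 92 against 75, 53 and 42. The part of group size in these counts was not tested. The time labels were also shuffled among the 21 libraries, in 2 draws of 100 shuffles. The rule found 16 to 123 genes with a median of 45 in the first draw and 15 to 115 with a median of 49 in the second. It found 92 or more in 6 and in 3 of the 100 shuffles. This is a comparison of counts, with no test. The orders and the shuffles were counted with the deposited CPM alone. With another scaling, described below, the falling order found 62 genes. The other orders and the shuffles were not counted with it.

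**Figure D2:**
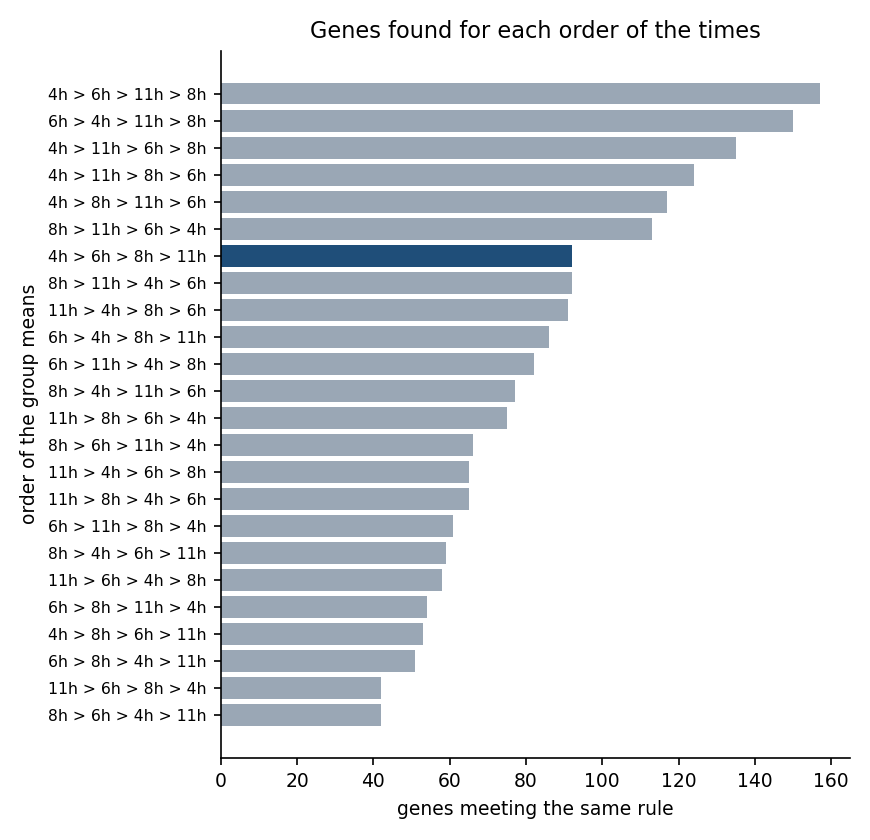
Bars give the number of genes of 10 to 1000 CPM that meet the same conditions for each of the 24 orders of the group means, from the highest to the lowest time. The falling order (dark bar) finds 92 genes, and 6 orders find more.

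None of the members passed a test across all genes. A slope per hour was fitted with limma to the 21 libraries, and 13779 genes with at least 2 CPM in 6 or more libraries were tested. At an adjusted p under 0.05, 0 genes fell, or 0%, and 0 rose; the smallest adjusted p of a falling gene was 0.126 (limma). At an unadjusted p under 0.05, 571 genes had a falling slope, or 4.14%, and 71 of the 92 members were among them. The rule used the same levels, so nothing follows from that share of the members. Evenly spread p-values would place 689 of the 13779 genes under 0.05, rising and falling together, against 571 falling and 382 rising. This is a description, with no test. The members' slopes ran from -0.13 to -0.05 log2 units per hour. For 11 h against 4 h 0 genes were called lower, or 0%, and 0 higher (limma), and 536 of 13779 were lower at an unadjusted p under 0.05, or 3.89%, with 60 members among them.

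The balance of falling and rising genes depended on the scaling. With the deposited CPM, 571 genes had a negative and 382 a positive slope at an unadjusted p under 0.05. With trimmed mean of M values (TMM) factors, which correct for the composition of each library, there were 370 and 580. The median difference between 4 h and 11 h over the 7008 genes moved from 0.05 to -0.01 log2 units. With TMM factors the median fall of the 92 members was 0.46, and the rule found 62 genes, 59 of them members.

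Libraries at 4 h and at 11 h overlapped in most members. In 4 members (4.35%) all 6 libraries at 11 h lay below all 6 at 4 h, against 30 of the 7008 genes, or 0.428%, a contrast that the rule used. The most abundant of these 4, with a mean of 113.7 CPM, had 121.6 to 145.8 CPM at 4 h, 99.7 to 127.1 at 6 h, 87.4 to 131.7 at 8 h and 81.4 to 105.1 at 11 h. Its libraries at 6 h and 8 h spanned nearly the whole way between those at the ends of the course. A member with a mean of 69.1 CPM had 72.7 to 99.5 CPM at 4 h and 41.7 to 63.2 at 11 h, and one with a mean of 67.5 CPM had 66.0 to 103.0 at 4 h and 44.0 to 52.7 at 11 h. The weakest of the 4 had 13.1 to 17.1 CPM at 4 h and 9.16 to 12.1 at 11 h, and its SD within times, 0.16, was the lowest of all members. Counting error, estimated from its reads, was 152% of its variance within times, the highest among members, so that its spread lay below that estimate. In the remaining 88 members at least 1 library at 11 h reached the range of those at 4 h.

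ENSGALG00010007679 and ENSGALG00010010974 had the most negative slope statistics of all genes tested, which is how they were picked for naming. ENSGALG00010007679 was at 65.9 CPM in its lowest library at 4 h, with a median of 84.7 and a highest value of 109.5. At 6 h its libraries had 91.7, 55.9, 95.8, 60.1 and 62.0 CPM, and at 8 h they had 67.4, 48.2, 60.2 and 65.2 CPM. At 11 h the lowest was at 30.5 CPM, the median 45.2 and the highest 73.1. Replicates 1 and 3 at 6 h thus stood within the range of 4 h, and at 11 h the highest library still lay above 2 of those at 4 h. Its mean level was 84.4 ± 15.3 CPM at 4 h (SD, n = 6), 73.1 ± 19.0 at 6 h (n = 5), 60.3 ± 8.57 at 8 h (n = 4) and 47.4 ± 17.5 at 11 h (n = 6). This was the largest fall of all members, 0.88 log2 units, with a slope of -0.13 ± 0.03 per hour (SE, adjusted p = 0.126, limma). Its steps were 0.22, 0.25 and 0.41 log2 units.

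ENSGALG00010010974 kept most of its level until 8 h. It ranged from 75.5 to 116.2 CPM at 4 h with a median of 96.6. At 6 h it had 80.7, 73.6, 86.9, 137.4 and 61.0 CPM, so that replicate 4 exceeded every library at 4 h. At 8 h it had 90.2, 74.3, 78.2 and 82.7 CPM, and at 11 h 48.9 to 76.2 CPM with a median of 52.4. The highest library at 11 h, at 76.2 CPM, lay just above the lowest at 4 h. The means were 96.2 ± 15.8 CPM at 4 h (SD, n = 6), 87.9 ± 29.3 at 6 h (n = 5), 81.3 ± 6.79 at 8 h (n = 4) and 56.8 ± 10.2 at 11 h (n = 6). Of its fall of 0.75 log2 units, 69.8% came between 8 h and 11 h, and its slope was -0.10 ± 0.02 per hour (SE, adjusted p = 0.126, limma). Without replicate 6 at 6 h its adjusted p was 0.0467 (limma). In that fit 2 of 13654 genes tested were called falling, 2 of them members, and 3 were called rising. The members were chosen on these same libraries, so nothing follows from their share.

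**Figure D3:**
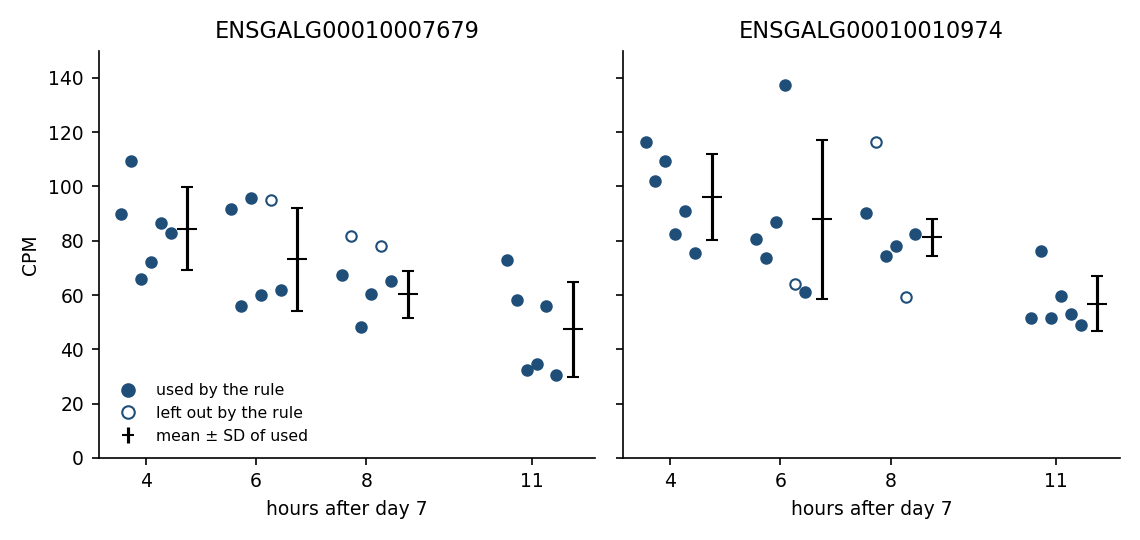
Points give the CPM of each library of ENSGALG00010007679 (left) and ENSGALG00010010974 (right) by hours after day 7; filled points were used by the rule, open points were not, and bars give the mean ± SD of the filled ones. The mean at 11 h is the lowest in both, while the range of libraries at 11 h overlaps with that of every earlier time.

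The 3 libraries that the rule did not use give an independent look at the step from 6 h to 8 h. All 3 are high in ENSGALG00010011988, against 2 of 5 used libraries at 6 h and 1 of 4 at 8 h. In the unused libraries 47 of the 92 members were higher at 6 h than in the mean of the 2 at 8 h. Of the 7008 genes 3866 were, or 55.2%. The median difference was 0.02 log2 units among members and 0.10 over the 7008 genes. No order of the members was thus detectable in these libraries, where a member had a median of 23 reads and as few as 0. With 1 library against 2 there is no test. For ENSGALG00010007679 the library at 6 h had 94.9 CPM and those at 8 h 81.6 and 78.2 CPM, while for ENSGALG00010010974 they had 64.2, 116.3 and 59.3 CPM. The former kept its order, on 71, 73 and 54 reads, and the latter, on 48, 104 and 41 reads, did not. The values of the former at 8 h lay above the 48.2 to 67.4 CPM of the used libraries at 8 h, so that its level was not kept. Those of the latter lay above and below its used range at 8 h, 74.3 to 90.2 CPM.

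The level of the members in the 3 unused libraries depended on the scaling, while its place beside that of all genes did not. Of the 92 members, 63 to 83 were above their own mean of the 21 libraries in each library at 4 h, 45 to 59 at 6 h, 30 to 41 at 8 h and 11 to 32 at 11 h, an order that the choice of members brings about. Replicates 2 and 5 at 8 h, unused, had 55 and 51 of the members above that mean, more than any of the used libraries at 8 h with the deposited CPM. Replicate 5 at 6 h had 51, within the range of the used ones. The median deviation was 0.17 and 0.13 log2 units in the former and 0.05 in the latter, while over the 7008 genes it was 0.04, 0.05 and 0.10. With TMM factors the former 2 were at -0.04 and -0.07, within the -0.15 to 0.03 of the used libraries at 8 h, and replicate 5 at 6 h was at -0.25, below the -0.04 to 0.22 of those at 6 h. Over the 7008 genes the medians with TMM factors were -0.17 and -0.15 in the former 2 and -0.20 in replicate 5 at 6 h. In both unused libraries at 8 h the members' median thus lay above that of all genes with either scaling. In every used library at 8 h, libraries that chose the members, it lay below. For replicate 5 at 6 h it lay below with either scaling, and above in every used library at 6 h. The 3 unused libraries had the fewest reads, and the part of depth in this was not tested. When all 24 libraries entered the rule, it found 66 genes, of which 38 were among the 92.

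**Figure D4:**
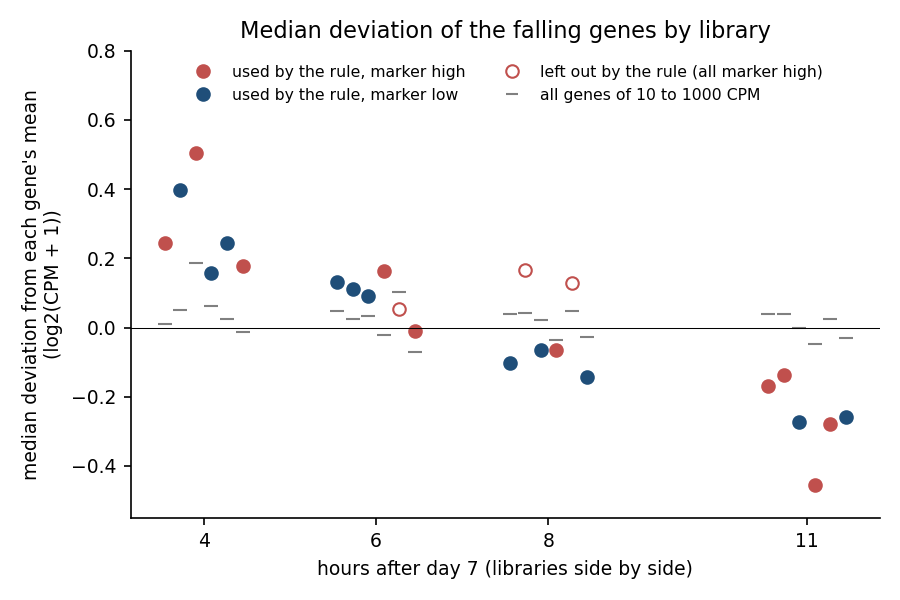
Points give, for each library by hours after day 7, the median over the 92 genes of log2(CPM + 1) minus each gene's mean of the 21 libraries used; colours mark libraries high or low in ENSGALG00010011988, open points were not used by the rule, and grey dashes give all 7008 genes. The 2 open points at 8 h, at 0.17 and 0.13, lie above the filled ones at that time with the deposited CPM plotted here. With TMM factors they do not (-0.04 and -0.07, against up to 0.03). With either scaling they lie above the median of all 7008 genes, and the filled ones at 8 h below it.

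Other properties of the libraries moved with time. The labels give each library a number, and these numbers were parted into a lower and an upper range, a cut that the labels do not make. The lower range holds all libraries of the earliest and the latest time, but only 1 of 5 used libraries at 6 h and 1 of 4 at 8 h. For the opening step to 6 h and the closing step after 8 h, time and library number are thus largely confounded and cannot be told apart. Within the upper range 79 of the 92 members were higher at 6 h (4 libraries) than at 8 h (3 libraries), by a median of 0.15 log2 units, against 46.5% of the 7008 genes. Within the lower range, with 1 library at each of the middle times, 58 members were higher at 4 h than at 6 h, 64 higher at 6 h than at 8 h and 66 higher at 8 h than at 11 h. The shares over the 7008 genes were 49.4%, 56.4% and 47.9%. All of these use the libraries that chose the members. The 3 unused libraries all lie in the upper range.

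Levels in the classes of ENSGALG00010011988 are given as a description, since the rule used both the fall in these libraries and the difference between the classes. Of the used libraries, 3 of 6 at 4 h, 2 of 5 at 6 h, 1 of 4 at 8 h and 4 of 6 at 11 h were high in this gene. Among the high libraries all 92 members had a higher mean at 4 h (3 libraries) than at 11 h (4 libraries), with a median difference of 0.55 log2 units. Among the low ones 91 did (3 libraries against 2), again with a median of 0.55. Over the 7008 genes these medians were 0.05 and 0.06. The difference between the classes themselves was capped by the rule and had a median of -0.03 among the members.

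Within times the members were weakly correlated with each other. The correlation of 2 members' deviations from their group means over the 21 libraries had a median of 0.06 over 4186 pairs, and a median of 0.02 over all pairs of the 7008 genes; 3.54% and 3.08% of pairs exceeded 0.5. The points share their libraries and depths. The median deviation of the members within times followed that of all 7008 genes (Pearson's r = 0.67 over 21 libraries, as a description) and the logarithm of the TMM factor taken within times (r = 0.58), while its r with the logarithm of depth was 8.5e-05. The part of library composition in this was not tested.

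Membership changed with single libraries. With each of the 21 libraries left out in turn the rule found 72 to 114 genes, which included 53 to 82 of the 92. Leaving out replicate 4 at 11 h, where only 11 members were above their mean, kept 53, the fewest, and leaving out replicate 1 at 11 h kept 82. A member was found in a median of 17 of the 21 runs, 38 members in at least 18, and 6 in fewer than 11. The 4 members found in all 21 included ENSGALG00010007679, while ENSGALG00010010974 was found in 20.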

How the data were processed

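RNA from 24 samples was sequenced as Lasy-Seq libraries, per the labels' protocols. Per the submitters' processing notes, BWA 0.7.17-r1188, fastp 0.21.0 and Salmon were used; what each did is, like the build and the gene models, not given in the sources used here. In the table, the authors deposited 1 value per gene and library on a natural log scale, ln(CPM + 1): exp(value) - 1 summed to 1000000 in each column. Of 406811 values above 0, all but 2, or 99.9995% of them, were whole multiples of 1 read within 0.01 read. The reads so recovered gave depth and scaling factors. No count model was fitted, since the deposited unit is a log scale; limma-voom on the recovered reads was an alternative and called 0 falling genes.

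Log2(CPM + 1), with a pseudocount of 1, was fitted with limma 3.58.1 (R 4.3.3), with an intensity trend, a spread shared by all times and no covariate. P-values were adjusted by Benjamini-Hochberg over 13779 genes. Other steps used Python 3.11.15. TMM factors trimmed 30% of M and 5% of A. The fit was also run on simulated data, with changes larger than the fall of any member, so that it does not bear on falls of their size. The reference table lists 25635 genes, 0 with an Ensembl identifier, so 0 identifiers matched. The members, lists and tests were chosen with earlier results of these data known. Since no names could be paired, the 2 members with the most negative slope statistic are named; ENSGALG00010011988 is named because the rule uses it. Libraries of a time were no copies, with a chi-square per degree of freedom of at least 8.73. Alternatives were other scalings, pseudocounts, filters, weights, terms and left-out libraries.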

Additional observations from a re-analysis of the deposited data

How the results depend on the processing

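The 92 genes are 1.31% of the genes in their range of CPM, and their count stayed within 1.5 times under 29 of 32 alternatives. Within that band it still dropped to 62 genes (0.88%) with TMM factors and to 66 (0.94%) with median-ratio size factors, another scaling. Of these, 59 and 63 were members. The count was 61 genes (1.22%) at a mean of 20 to 1000 CPM and 28 genes (0.40%) with a fall of at least 0.6. The share was 2.15% with a fall of at least 0.3. These last 3 moves follow from the limits themselves. With each library left out it was 72 to 114 genes (1.03% to 1.63%). Of the 32 alternatives, 21 left out 1 library each. A similar count need not hold the same genes: with all 24 libraries it was 66, but only 38 of these were among the 92. The 0 falling slopes became 1 with the level class of ENSGALG00010011988 as a term (0 members) and 4 within the lower range of library numbers (2 members, ENSGALG00010010974 at an adjusted p of 0.0427, limma), and 0 to 2 with each library left out. The 0 genes lower at 11 h than at 4 h became 1 with that class as a term, 1 in a fit of those times alone, and 0 to 2 with each library left out: 1 without replicate 4 at 4 h, 2 without replicate 3 at 6 h and 2 without replicate 4 at 6 h, of which 1 was a member. The cause was not tested. Falling slopes numbered 0 in 31 of 34 settings, and genes lower at 11 h in 29 of 34. With the replicate number as a block (replicate block) 0 genes were called in either test. The numbers are not shown to pair the libraries, since the deviations of 7 of 28 same-numbered pairs correlated above 0.1. The median correlation was -0.08 for these pairs and 0.03 for pairs of other numbers. Same-numbered libraries at 4 h and 11 h lie close in library number, and the labels do not state what this stands for. The slope of ENSGALG00010007679 ran from -0.14 to -0.11 per hour (adjusted p 0.0555 to 0.304, limma) and that of ENSGALG00010010974 from -0.12 to -0.10 (0.0427 to 0.399), past the threshold in 0 and 2 of 32 alternatives. In the 3 unused libraries 43 members were higher at 6 h with TMM factors and 46 and 49 against replicates 2 and 5 at 8 h alone. The shares over the 7008 genes were 49.7%, 53.6% and 52.3%. These settings were chosen after seeing the data. In those libraries a member had a median of 23 reads, and as few as 0.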
